A study of Homo sapiens with 60 samples.

Results

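Of the negative limb and the output of the circadian clock, 10 genes were followed in 1321N1 cells: PER1, PER2, PER3, CRY1, CRY2, NR1D1, NR1D2, DBP, TEF, and BHLHE40. They were taken by symbol from the 62703 genes of the count table, and all 10 were among the 12341 genes with sufficient counts for testing. 1321N1 is a human cell line derived from an astrocytoma. Its medium was replaced with medium containing 2.55 µM sodium metaarsenite (arsenic), 2.3 µM cadmium chloride (cadmium), or 20 µM mercury chloride (mercury), or the cells were left non-treated, and RNA was collected after 1.5, 3, 6, 12, or 24 h. Each of the 20 groups had 3 libraries, 60 in all, of 3′ mRNA sequencing, in which a transcript gives reads from its 3′ end only. The concentrations were chosen by the authors to be equitoxic at a low level of cell death, no gene was altered in any group, and the line is a tumor line, so that it stands for astrocytes only in part. Levels are given as CPM, the counts of a gene scaled to the TMM-normalized library size, which do not grow with gene length in this assay. Log2 fold changes (LFC) come from edgeR, and a gene passed when its p value, adjusted by Benjamini-Hochberg over the 12341 genes of a comparison, was below 0.05. The labels call the triplicates technical, so the p values cover only the spread between these libraries. In bulk RNA, fewer cells expressing a gene and less RNA per cell cannot be told apart.

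In mammalian cells, the transcription factors CLOCK and BMAL1 bind E-box sequences and switch on the genes of their own repressors. The PER and CRY proteins gather in the cytoplasm, return to the nucleus, and inhibit CLOCK and BMAL1, and their decay starts the next cycle. NR1D1 and NR1D2 (also known as REV-ERBα and REV-ERBβ) are nuclear receptors that repress BMAL1, in competition with the ROR activators. DBP and TEF are PAR bZIP factors that carry the rhythm to output genes through D-box sequences, and BHLHE40 (also known as DEC1) is a repressor that competes for E-boxes and also responds to many stresses. Cultured cells each run their own clock, and a change of medium can bring them into step for some cycles. For this reason, each metal was set against non-treated cells collected at its own time point. The paper does not state whether the non-treated cells also received fresh medium. If they did not, the medium change and the metal cannot be told apart.

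The 10 genes lie on 8 chromosomes of GRCh38 and are all protein-coding. NR1D2 is at chr3:23945286-23980617 (plus strand), CRY1 at chr12:106991364-107093549 (minus strand), and PER2 at chr2:238244044-238290102 (minus strand). These 3 genes carried all of the metal differences that passed the test, so the DNA upstream of their start sites is shown. The sequences are those of RefSeq on GRCh38.p14, read 5′ to 3′ on the strand of the gene, and capitals mark an E-box with the letters CACGTG, a variant of it with the letters CACGTT, or a D-box with the letters TTATGTAA, each read on either strand. For NR1D2, the window before the second of its annotated starts (chr3:23945871-23946120) held 2 E-boxes, 155 and 105 bases before the start, and a D-box 194 bases before it, whereas the window of the other start held none of these motifs. For CRY1 (chr12:107093550-107093799), the variant lay 89 bases before the start. For PER2, the 30 bases around its variant (chr2:238288790-238288819) are given, which lay 197 bases before the start and inside an exon of other PER2 transcripts.
NR1D2: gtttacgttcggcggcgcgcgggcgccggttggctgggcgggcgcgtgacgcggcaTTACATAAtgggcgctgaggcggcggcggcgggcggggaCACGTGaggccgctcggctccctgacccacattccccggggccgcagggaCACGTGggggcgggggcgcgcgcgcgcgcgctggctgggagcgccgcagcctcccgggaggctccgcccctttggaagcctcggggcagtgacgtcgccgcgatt
CRY1: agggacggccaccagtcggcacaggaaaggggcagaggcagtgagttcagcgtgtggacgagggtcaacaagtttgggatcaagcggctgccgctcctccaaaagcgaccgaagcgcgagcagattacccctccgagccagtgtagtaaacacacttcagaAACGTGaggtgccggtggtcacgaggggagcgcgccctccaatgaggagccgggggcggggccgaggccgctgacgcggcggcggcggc
PER2: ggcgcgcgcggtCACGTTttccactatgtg

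Over all 10 genes, 14 windows of 250 bases were searched on both strands, and some genes had more than 1 window. CACGTG was present for PER1, NR1D2, TEF, and BHLHE40 (5 of 14 windows), and in 6.34% of the windows of 35116 RefSeq promoters. CACGTT was present for PER2, CRY1, CRY2, and NR1D1 (4 of 14 windows), and in 4.55% of promoters. The D-box was present for PER3 and NR1D2 (2 of 14 windows), and in 0.834% of promoters. A cAMP response element (TGACGTCA) was in none of the 14 windows and in 1.65% of promoters. The E-box and its variant differ in their last letter, so no site counts as both. A match is a stretch of letters and was not tested as a binding site.

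The genes differed widely in level. NR1D2 had the highest mean over all libraries, 39.3 CPM, followed by CRY1 (21.8), PER3 (12.3), PER1 (9.08), BHLHE40 (7.66), and PER2 (6.01). TEF (2.59), NR1D1 (2.33), CRY2 (1.97), and DBP (1.53) were close to the limit of counting, where 3 counts in a library correspond to 0.682 to 1.36 CPM. DBP had at most 3 counts in 25 of 60 libraries, NR1D1 in 11, CRY2 in 10, and TEF in 8. For these 4 genes, differences of the size seen for NR1D2 were not detectable at this depth, which was 2215276 to 4404609 counts per library. NR1D1 and DBP overlap THRA and SPHK2 on the opposite strand over 95.8% and 94.2% of their last 400 exonic bases, and the authors counted reads by strand.

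The label of the line was checked by markers. VIM (3014 to 5782 CPM), CD44, and SOX9, which astrocytes and glioma cells express, were present in every library, whereas GFAP had no counts in 57 of 60 libraries and AQP4 and ALDH1L1 in all 60. S100B had no counts in 59 libraries, so defining markers of mature astrocytes were at or near 0. The 10 markers of neurons, oligodendrocytes, and immune, endothelial, and epithelial cells summed to 3.41 to 19.2 CPM in each library, of which KRT8, also found in tumor lines, made up 2.17 to 17.1 CPM. The exposures were checked with genes known to respond to these metals. At 24 h, HMOX1, the heme-degrading stress enzyme, was at 2417 ± 181 CPM with arsenic and 1905 ± 237 CPM with mercury, against 13.0 ± 2.69 CPM in non-treated cells, and MT1X, a metallothionein, was at 259 ± 14.1 CPM with cadmium against 7.07 ± 2.33 CPM (SD, n = 3). HMOX1 was at 359 ± 72.6 CPM with cadmium, and MT1X at 23.0 ± 2.93 CPM with arsenic. With mercury, MT1X was at 11.5 ± 4.05 CPM and overlapped the non-treated libraries.

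**Figure D1:**
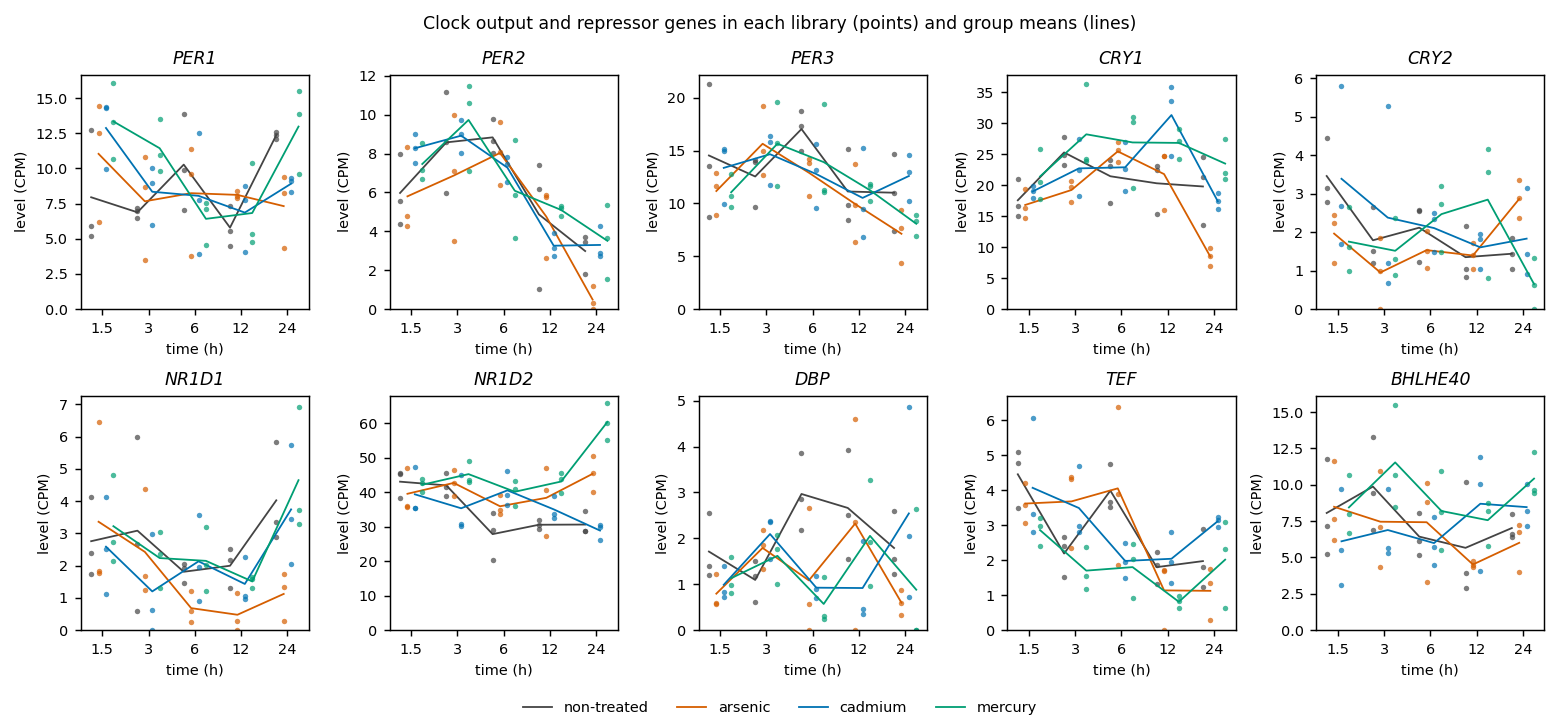
Level in CPM (linear axis from 0, a separate scale for each gene) of the 10 clock genes against time in h (categories), with 1 point for each library and lines through the means of 3 libraries for non-treated, arsenic, cadmium, and mercury. PER2 ended lower at 24 h than at 6 h in all 4 treatments, arsenic ended lowest for PER2 and CRY1, and mercury ended highest for NR1D2 at 60.3 CPM.

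To assess the clock genes without a metal, the non-treated libraries were compared over time. Tested over the 5 time points together, NR1D2 and PER2 changed in non-treated cells (2 of 10 genes, where 7.53% of all genes passed this joint test). At 1.5 h, NR1D2 was measured at 38.2, 45.3, and 45.5 CPM, and 3 h gave 38.9, 41.4, and 45.5 CPM. The 6 h libraries had 20.5, 29.0, and 34.0 CPM, those of 12 h had 29.3, 30.5, and 31.8 CPM, and those of 24 h had 28.6, 28.6, and 34.6 CPM. The libraries of 6, 12, and 24 h thus lay below all those of 1.5 and 3 h (edgeR joint test, F = 6.18, adjusted p = 0.00998), and the test held without any single library.

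PER2, the repressor whose transcript answers quickly to many signals, had a different course. The 1.5 h libraries had 4.38, 5.58, and 7.96 CPM, those of 3 h had 5.99, 8.57, and 11.2 CPM, and those of 6 h had 8.04, 8.67, and 9.79 CPM. Later, the 12 h libraries had 1.05, 6.15, and 7.41 CPM and the 24 h libraries 1.80, 3.46, and 3.69 CPM, so that the 24 h libraries lay below all those of 6 h and 1.5 h while a single 12 h library stood apart from the others (F = 4.52, adjusted p = 0.0414 in edgeR). The result was close to the threshold, and in a fit of only the 15 non-treated libraries it was lost (F = 3.98, adjusted p = 0.0769). Omitting a single library lost it in 9 of 15 cases, with the highest adjusted p, 0.187, reached without replicate 1 of 24 h. Those 9 were replicates 1, 2, and 3 of 6 h and of 24 h, replicates 1 and 3 of 3 h, and replicate 2 of 1.5 h. The other 8 genes did not pass the joint test. PER1, a repressor of the same family, had 4.47, 5.56, and 7.33 CPM at 12 h and 12.1, 12.4, and 12.6 CPM at 24 h, without overlap (LFC 1.08 ± 0.362 (SE), adjusted p = 0.110 in edgeR).

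When each later time was compared with 1.5 h alone, none of the 10 genes passed in edgeR in 40 gene-comparisons, and 2.00% of all gene-comparisons of these times passed. An unadjusted p below 0.05 was found in 8 of the 40 and in 12.5% of all gene-comparisons. DESeq2 passed 3 of the 40, all of them NR1D2, at 6, 12, and 24 h, but gave no adjusted p for 4, 7, and 4 of the 10 genes at these times in turn. For NR1D2, 6, 12, and 24 h gave an LFC of -0.63 ± 0.170, -0.50 ± 0.164, and -0.50 ± 0.164 in turn, with adjusted p values of 0.0669, 0.0673, and 0.0794 in edgeR. Over the 10 genes, the median LFC at 12 h was -0.48 with 8 negative, and at 24 h -0.31 with 6 negative, while the medians of all genes were 0.00 and 0.01. TEF was at 4.45 ± 0.852 CPM at 1.5 h and 1.97 ± 0.841 CPM at 24 h, without overlap (LFC -1.16 ± 0.530, adjusted p = 0.239 in edgeR).

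With arsenic, PER2 and CRY1 were lower and NR1D2 was higher than in non-treated cells of the same time, each at 24 h. These were the 3 that passed in 50 gene-comparisons over 5 times, and 3.90% of all gene-comparisons passed with arsenic. An unadjusted p below 0.05 was found in 9 of the 50 and in 13.6% of all gene-comparisons. At 24 h alone, 3 of 10 genes passed, compared with 14.3% of all genes (6.54% higher and 7.75% lower). At 1.5, 3, 6, and 12 h, none of the 10 passed in edgeR, with 3 unadjusted p values below 0.05. These were NR1D2 at 6 h (LFC 0.36) and 12 h (LFC 0.33), in the direction seen at 24 h, and NR1D1 at 12 h (LFC -2.01). DESeq2 passed none either, but gave no adjusted p for any of the 10 at 1.5 h, for 5 at 3 h, and for 2 at 12 h.

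PER2 had 0, 1, and 4 counts in the arsenic libraries at 24 h, or 0, 0.289, and 1.18 CPM, and 7, 12, and 12 counts in the non-treated libraries, or 1.80, 3.69, and 3.46 CPM. All 3 arsenic libraries lay below all 3 non-treated ones (LFC -2.46 ± 0.670, 95% interval -3.79 to -1.12, adjusted p = 0.00687 in edgeR). Since these are few counts, the size of the fold change is uncertain within this interval. The call was lost without arsenic replicate 1, which had 0 counts (LFC -1.96, adjusted p = 0.0568), and without arsenic replicate 2 (LFC -2.17, adjusted p = 0.0516), and it was kept without arsenic replicate 3, which left 1 count in the arsenic libraries. The joint test of arsenic over the 5 times did not pass for PER2 (adjusted p = 0.117 in edgeR).

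CRY1, the partner of the PER proteins and a strong repressor of CLOCK and BMAL1, was at 7.02, 8.54, and 9.84 CPM with arsenic at 24 h and at 13.5, 21.4, and 24.5 CPM in non-treated cells. Again the libraries did not overlap (LFC -1.22 ± 0.238, 95% interval -1.70 to -0.75, adjusted p = 0.000102 in edgeR), and leaving out any of the 6 libraries gave an LFC between -1.42 and -1.04 and kept the call. At 12 h, the arsenic libraries were at 16.0, 24.7, and 24.7 CPM, in the range of the non-treated ones at 15.4, 22.5, and 23.0 CPM. The effect of arsenic on CRY1 differed between 24 h and 12 h (LFC difference -1.32 ± 0.317, adjusted p = 0.0174 in edgeR). This was the single difference that passed in 30 such tests of a metal effect between these times, and 0.859% of all gene-comparisons of this kind passed. With arsenic, the difference between these times did not pass for PER2 (LFC difference -2.44 ± 0.803, adjusted p = 0.106 in edgeR) or NR1D2 (0.23 ± 0.229, adjusted p = 0.711 in edgeR). An unadjusted p below 0.05 was found in 6 of the 30 and in 11.4% of all. The CRY1 call was lost on omitting any of 4 of the 12 libraries (without replicate 1 of arsenic at 24 h, replicate 2 of arsenic at 12 h, or replicate 1 of non-treated cells at 12 h or at 24 h), with adjusted p values of up to 0.0625.

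NR1D2 was at 40.1, 45.5, and 50.4 CPM with arsenic at 24 h, above the 28.6, 28.6, and 34.6 CPM of the non-treated libraries (LFC 0.57 ± 0.161, adjusted p = 0.0102 in edgeR). Its means with arsenic were 39.5 CPM at 1.5 h and 45.3 CPM at 24 h, whereas the non-treated means went from 43.0 to 30.6 CPM between these times. The call was lost without arsenic replicate 2 (adjusted p = 0.0773) and without non-treated replicate 1 or 2 of that time, whereas the LFC stayed between 0.48 and 0.67. Its relative NR1D1 moved the other way in value: it had 0.295, 1.34, and 1.74 CPM against 2.89, 3.35, and 5.84 CPM, without overlap, and did not pass (LFC -1.80 ± 0.711, adjusted p = 0.0798 in edgeR). PER1 was at 4.34, 8.25, and 9.37 CPM against 12.1, 12.4, and 12.6 CPM, also without overlap and without passing (LFC -0.76 ± 0.356, adjusted p = 0.153 in edgeR). At 24 h of arsenic, 8 of 10 genes had a negative LFC, with a median of -0.78 where the median of all genes was 0.00. In 5 genes all arsenic libraries lay below all non-treated ones and in 2 above (PER1, PER2, CRY1, NR1D1, and DBP below, CRY2 and NR1D2 above), while 14.3% of all genes lay fully below and 13.2% fully above.

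**Figure D2:**
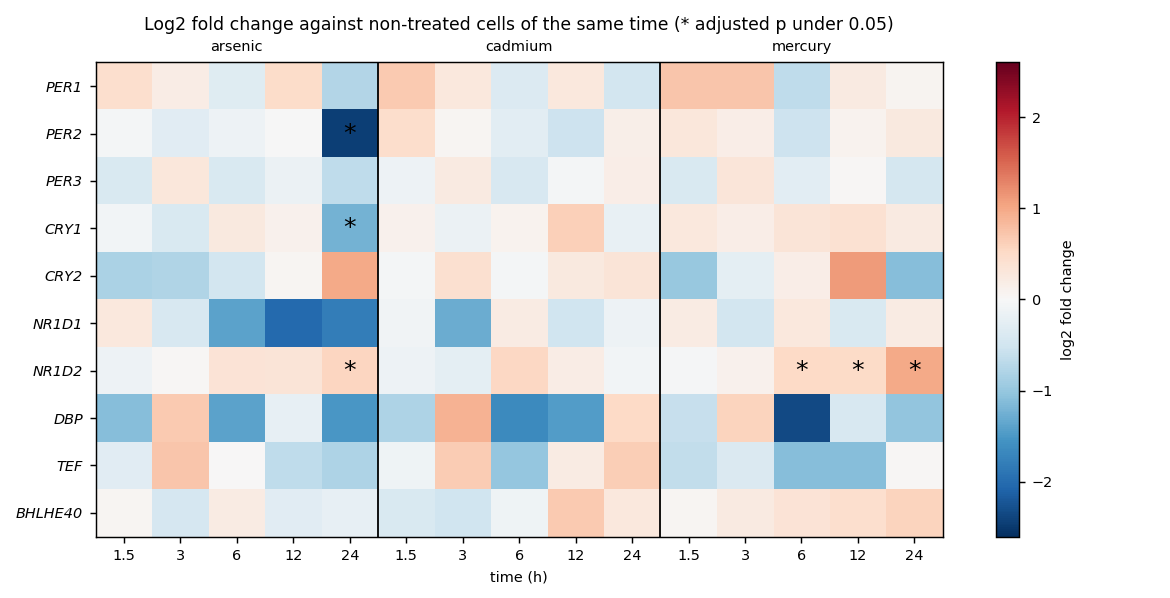
LFC of the 10 clock genes (rows) for arsenic, cadmium, and mercury against non-treated cells of the same time (columns, time in h), in color from -2.6 (blue) to 2.6 (red), with a star where the adjusted p was below 0.05. The 6 stars are PER2, CRY1, and NR1D2 with arsenic at 24 h and NR1D2 with mercury at 6, 12, and 24 h.

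Cadmium did not change any of the 10 genes past the threshold. In 50 gene-comparisons, 0 passed in edgeR and 1 in DESeq2, while 2.52% of all gene-comparisons passed in edgeR. DESeq2 gave no adjusted p for 9 of the 10 genes at 3 h and for 4 at each of 6 and 24 h. An unadjusted p below 0.05 was found in 3 of the 50 and in 12.7% of all gene-comparisons. The one passed by DESeq2 was CRY1 at 12 h, at 24.7, 33.6, and 35.8 CPM with cadmium and 15.4, 22.5, and 23.0 CPM in non-treated cells. All cadmium libraries were above all non-treated ones (LFC 0.62 ± 0.208, adjusted p = 0.0501 in edgeR and 0.0370 in DESeq2). CRY1 at 12 h passed in 5 of 7 alternatives, but not without a filter on low counts or with the requirement of an LFC beyond 1. Without cadmium replicate 2 the adjusted p was 0.0287, and without any of the other 5 libraries it did not pass, with an adjusted p of up to 0.306 and an LFC down to 0.45. At 24 h, CRY1 was at 17.4 ± 1.27 CPM with cadmium and 19.8 ± 5.66 CPM in non-treated cells (LFC -0.20, 95% interval -0.63 to 0.23). NR1D2 with cadmium at 6 h was at 36.4, 39.1, and 46.1 CPM, above the 20.5, 29.0, and 34.0 CPM of non-treated cells (LFC 0.53 ± 0.171, adjusted p = 0.0931 in edgeR). It passed in none of the 7 alternatives and, of the 6 libraries, only without non-treated replicate 3 (adjusted p = 0.0428), with an adjusted p of up to 0.397 without one of the others. For PER2 at 24 h the interval of the cadmium LFC was -0.79 to 1.10, so that a change of the size seen with arsenic lay outside it.

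With mercury, NR1D2 was above non-treated cells of the same time from 6 h on, and none of the other 9 genes passed. Of 50 gene-comparisons 3 passed, and 10.7% of all gene-comparisons passed with mercury. An unadjusted p below 0.05 was found in 7 of the 50 and in 20.0% of all. At 6 h, NR1D2 was at 36.1, 40.9, and 43.3 CPM against 20.5, 29.0, and 34.0 CPM (LFC 0.52 ± 0.168, adjusted p = 0.0429 in edgeR). Cadmium did not differ from mercury past the threshold for NR1D2 at 6 h (LFC 0.01, adjusted p = 0.986 in edgeR). Nor did arsenic (LFC -0.15, adjusted p = 0.690 in edgeR), so the 6 h values do not set mercury apart from the other metals. At 12 h, NR1D2 with mercury was at 39.7, 43.8, and 45.7 CPM against 29.3, 30.5, and 31.8 CPM (LFC 0.50 ± 0.164, adjusted p = 0.0258 in edgeR). At 24 h, it was at 55.2, 60.1, and 65.7 CPM against 28.6, 28.6, and 34.6 CPM, close to 2 times as high (LFC 0.98 ± 0.159, 95% interval 0.66 to 1.30, adjusted p = 1.25e-06 in edgeR). The mercury libraries lay above the non-treated ones at all 3 times.

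The 1 of 10 genes that passed at each of these times compared with 7.48% of all genes at 6 h, 16.0% at 12 h, and 27.8% at 24 h. The 24 h call was kept without any single library, with an LFC between 0.92 and 1.09. The 6 h call was lost without replicate 1 or 2 of mercury or replicate 1 or 2 of non-treated cells, with adjusted p values of up to 0.290 and an LFC of 0.35 without non-treated replicate 2. The 12 h call was lost without replicate 2 or 3 of mercury or replicate 1 or 3 of non-treated cells, with adjusted p values of up to 0.102. At 1.5 and 3 h, NR1D2 with mercury was at 42.1 ± 1.97 and 45.2 ± 3.37 CPM against 43.0 ± 4.18 and 41.9 ± 3.32 CPM. The means with mercury thus stayed within 40.1 to 45.2 CPM from 1.5 to 12 h, over which the non-treated means went from 43.0 to 30.5 CPM. Over the 5 times together, NR1D2 passed for mercury (F = 11.5, adjusted p = 1.00e-06; 28.0% of all genes passed), arsenic passed for CRY1 and NR1D2 (adjusted p = 0.00169 and 0.0200; 12.9% of all genes), and cadmium passed for none of the 10 in edgeR (8.49% of all genes; for NR1D2, unadjusted p = 0.0213).

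The remaining genes with mercury at 24 h did not pass. PER2 was at 1.55, 3.63, and 5.35 CPM and CRY1 at 21.1, 22.0, and 27.4 CPM, both overlapping the non-treated libraries, with 95% intervals of the LFC from -0.71 to 1.20 and from -0.18 to 0.66. BHLHE40 was at 9.44, 9.61, and 12.2 CPM against 6.44, 6.64, and 7.99 CPM, without overlap (LFC 0.57 ± 0.385, adjusted p = 0.284 in edgeR). DBP was at 0, 0, and 2.64 CPM against 1.79 ± 0.716 CPM (LFC -1.03 ± 0.853, adjusted p = 0.399 in edgeR). This value rests on the library with 8 counts, mercury replicate 3, without which both remaining mercury libraries had 0 counts and no fold is given (adjusted p = 0.0101). CRY2, at 0 to 4 counts with mercury at 24 h, was likewise too low for a firm value. At 6 h, all mercury libraries of DBP lay below all non-treated ones (LFC -2.34 ± 0.858, adjusted p = 0.0823 in edgeR). The same held for TEF (LFC -1.11 ± 0.541, adjusted p = 0.234 in edgeR) and for 11.4% of all genes. With cadmium at 6 h, both also lay fully below (LFC -1.66 and -1.01), as did 9.02% of all genes, and neither passed. With arsenic at 6 h, both overlapped the non-treated libraries.

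**Figure D3:**
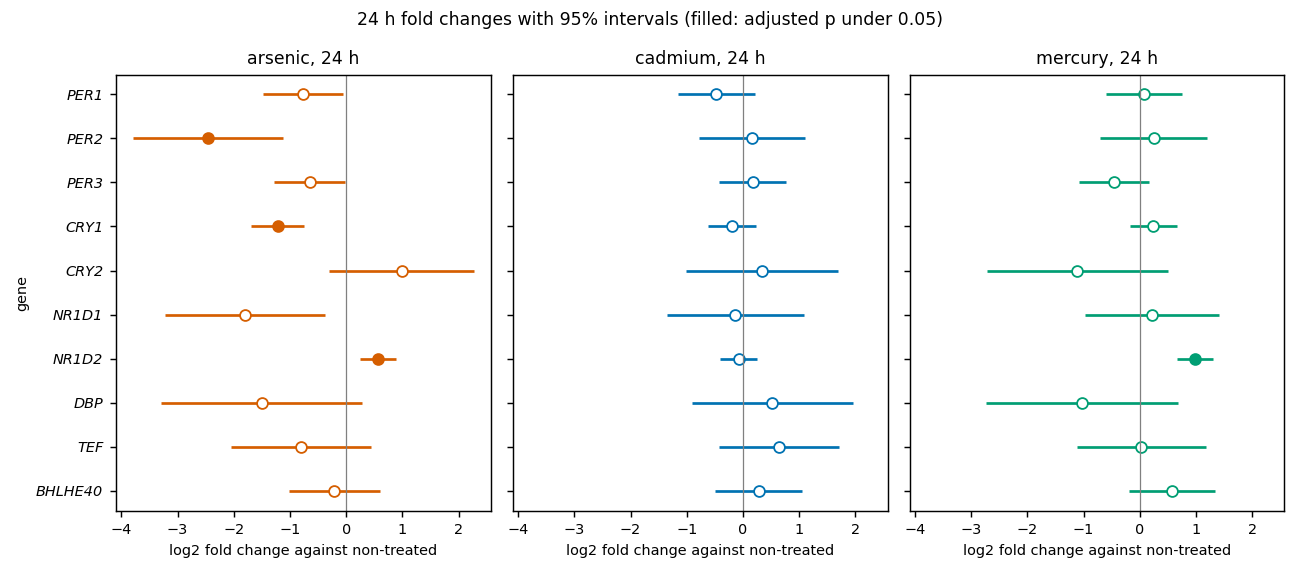
LFC against non-treated cells at 24 h (horizontal axis) of the 10 clock genes (rows) with 95% intervals, in panels for arsenic, cadmium, and mercury, with filled points where the adjusted p was below 0.05. With arsenic, the intervals of PER2 (-2.46) and CRY1 (-1.22) lie left of 0, and that of NR1D2 lies right of 0 with arsenic (0.57) and mercury (0.98).

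Comparing the metals directly showed which differences were larger than the spread between libraries. Of 150 gene-comparisons 6 passed, all at 24 h, and 4.86% of all gene-comparisons between metals passed. An unadjusted p below 0.05 was found in 22 of the 150 and in 15.6% of all. PER2 was lower with arsenic than with cadmium, where it had 2.73, 2.87, and 4.29 CPM (LFC -2.61, adjusted p = 0.00439 in edgeR), and than with mercury (LFC -2.70, adjusted p = 0.00290 in edgeR). For CRY1, arsenic was below cadmium, which gave 16.1, 17.5, and 18.7 CPM (LFC -1.02, adjusted p = 0.00206 in edgeR) and below mercury (LFC -1.46, adjusted p = 4.46e-06 in edgeR). Arsenic thus stood apart from both other metals for these 2 repressors.

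For NR1D2, arsenic was above cadmium, which gave 26.2, 30.0, and 30.4 CPM (LFC 0.64, adjusted p = 0.00438 in edgeR). It was also higher with mercury than with cadmium (LFC of cadmium against mercury -1.06, adjusted p = 5.55e-07 in edgeR). The difference between arsenic and mercury did not pass, although all mercury libraries lay above all arsenic libraries (LFC -0.41, 95% interval -0.72 to -0.11, adjusted p = 0.0692 in edgeR), whereas it passed in DESeq2 (adjusted p = 0.0445). All 6 calls held without any of the libraries compared. At 24 h, 3 of 10 genes passed between arsenic and cadmium (10.2% of all genes), 2 of 10 between arsenic and mercury (11.4%), and 1 of 10 between cadmium and mercury (20.0%). NR1D1 was at 3.30, 3.72, and 6.92 CPM with mercury at 24 h and 0.295, 1.34, and 1.74 CPM with arsenic, a difference just short of the threshold (LFC -2.02 ± 0.708, adjusted p = 0.0507 in edgeR and 0.0373 in DESeq2). It did not pass in edgeR without any of the 6 libraries, with an adjusted p of up to 0.232. CRY2 was higher with arsenic than with mercury, without overlap (LFC 2.10 ± 0.745, adjusted p = 0.0548 in edgeR), and passed only without mercury replicate 3.

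**Figure D4:**
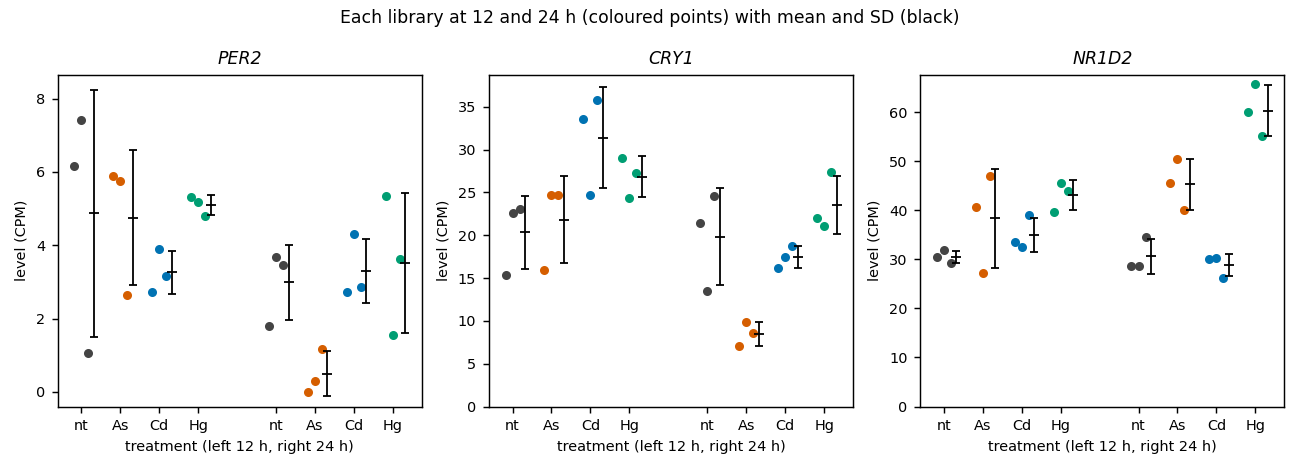
Level in CPM of PER2, CRY1, and NR1D2 in each library (colored points, with black mean and SD, n = 3) for non-treated cells (nt), arsenic (As), cadmium (Cd), and mercury (Hg), at 12 h on the left and 24 h on the right of each panel. At 24 h the arsenic points are the lowest for PER2 and CRY1, between 7.02 and 9.84 CPM for CRY1, and the mercury points are the highest for NR1D2, between 55.2 and 65.7 CPM.

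Across the 20 group means, PER2 and PER3 had the most similar patterns among the 10 genes (Pearson's r = 0.820 on log2 CPM, 20 groups), followed by PER2 and CRY1 (0.652). NR1D2 and DBP had the most opposed (-0.614). The groups share time points and metals, so these are descriptions. Among the 8376 genes that averaged 10 CPM or more, the most similar to NR1D2 were DHRS7 (0.891) and LBH (0.844), those most similar to PER2 were SCUBE3 (0.894) and AJAP1 (0.879), and PER3 was most similar to CD82 (0.903) and SCUBE3 (0.856). For CRY1, they were ENSG00000286511 (0.801) and FERMT2 (0.791), and for TEF, IBA57 (0.833) and ABHD10 (0.821). BHLHE40 was most similar to DDX3X (0.833) and PVR (0.760), and DBP to MIR1244-2 (0.800) and SPATA33 (0.730). The values were lower for NR1D1 with SLAIN2 (0.767) and TNFAIP1 (0.750), for PER1 with NKIRAS2 (0.745) and HIC2 (0.723), and for CRY2 with MBIP (0.736) and UGGT2 (0.701).

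Of 20 other genes of the clock (activators, ROR receptors, kinases, and ubiquitin ligases), 15 were tested. The list was not chosen by its values in this work, but earlier results of these data were known. In this list and the next, a gene that rose or fell with a metal lay above or below non-treated cells of the same time. It need not have changed in that direction from its own level at 1.5 h. BMAL2, a paralog of BMAL1, rose with mercury at 12 h (51.5 ± 3.46 against 32.6 ± 7.06 CPM, LFC 0.66, adjusted p = 0.00383 in edgeR) and 24 h (LFC 0.63, adjusted p = 0.00431 in edgeR), and with cadmium at 12 h (LFC 0.65, adjusted p = 0.00946 in edgeR). CSNK1E, a kinase that marks PER proteins for decay, rose in the same 3 comparisons (LFC 0.78, 0.72, and 0.70). BHLHE41, the close relative of BHLHE40, rose with mercury at 12 h (11.3 ± 2.81 against 4.06 ± 1.70 CPM, LFC 1.44, adjusted p = 0.00445 in edgeR). CIART, another repressor of CLOCK and BMAL1, fell with arsenic at 12 h (2.19 ± 0.881 against 5.69 ± 1.23 CPM, LFC -1.36, adjusted p = 0.0373 in edgeR) and was the single gene of the list that passed with arsenic (4.11% of all genes passed at 12 h). Also passing were BMAL1 with mercury at 6 h and NPAS2 with mercury at 24 h, both higher, and TIMELESS with cadmium at 12 h, which was lower. Thus 3 of 15 rose with mercury at each of 12 and 24 h, where 8.89% and 13.9% of all genes rose, and 2 of 15 rose and 1 fell with cadmium at 12 h (8.18% of all genes). In non-treated cells against 1.5 h, CSNK1E fell at 12 h (LFC -0.52; 4.09% of all genes passed) and BMAL2 at 24 h (LFC -0.74; 3.29% of all genes).

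All of 8 genes known as clock-controlled or as sharing hormone inputs with the PER genes were tested. TSC22D3 (also known as GILZ), a glucocorticoid-induced gene, rose in 6 of 15 comparisons with non-treated cells: with arsenic at 6, 12, and 24 h and with mercury at the same times. With mercury at 12 h it was at 38.3 ± 6.53 against 6.95 ± 3.61 CPM (LFC 2.48, adjusted p = 9.86e-10 in edgeR), and with arsenic at 24 h at 18.1 ± 3.54 against 6.49 ± 1.85 CPM (LFC 1.49, adjusted p = 0.000314 in edgeR). NAMPT, the enzyme that limits NAD recycling, rose with mercury at 12 h (LFC 0.65, adjusted p = 0.00478 in edgeR) and 24 h and with cadmium at 12 h (LFC 0.60, adjusted p = 0.0191 in edgeR). FKBP5 fell with cadmium at 12 h, the only fall of this list that passed with a metal. Also passing were KLF9 with mercury at 3 h and with cadmium at 6 h, and POR with mercury at 12 h, each higher. At 24 h of mercury, 4 of 8 rose (NAMPT, TSC22D3, KLF10, and POR) and none fell, where 13.9% of all genes rose, and the median LFC was 0.54 against -0.02 over all genes. At 24 h of arsenic, 1 of 8 rose, where 6.54% of all genes rose. KLF10 fell in non-treated cells at 12 and 24 h against 1.5 h, by an LFC of -1.60 at 24 h.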

How the data were processed

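RNA of 60 libraries (3 for each of 4 treatments and 5 times) was sequenced from the 3′ end. Single-end reads of 100 bases were aligned by the authors to GRCh38 (STAR 2.7.9a) and counted by strand on GENCODE basic exons, and the authors deposited whole-number counts per gene without normalization. The 92 spike-in rows held 0 counts.

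One edgeR 4.0.16 model (R 4.3.3) of all libraries held a mean for each of 20 groups, TMM factors, and filterByExpr (minimum count 10, minimum total 15). P values of the quasi-likelihood test were adjusted by the Benjamini-Hochberg method, separately for each comparison (15 metal against non-treated, 15 between metals, 4 later against 1.5 h, 3 changes of a metal effect from 12 to 24 h); a joint test covered the 5 times. Steps between neighboring times (6 against 3 h, 12 against 6 h, and 24 against 12 h) were also tested for all 10 genes, and none passed. Only PER1 at 24 against 12 h was described. NR1D2 at 6 against 3 h had a lower p value (unadjusted p = 0.000883, adjusted p = 0.195 in edgeR, LFC -0.59). Groups were taken from the labels. The genes and lists were chosen with earlier results of these data known. Members were named in every comparison they passed; of the other lists, the 2 genes passing most often and the 2 with the largest passing LFC were named, and for each member the 2 most similar genes. The other genes named, and those that did not pass, were chosen after their values were seen. Replicates were not copies (lowest chi-square per degree of freedom, 1.99), and their numbers did not pair the libraries. Alternatives were RLE size factors, other filters, a replicate block, fits of only the libraries compared, DESeq2 1.42.0, an LFC beyond 1, and leaving out each library, for which comparisons without that library kept their values.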

Additional observations from a re-analysis of the deposited data

Results flagged for a closer look

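The effect of arsenic on CRY1 differed between time points. The LFC difference between 24 h and 12 h was -1.32 ± 0.317 (adjusted p = 0.0174 in edgeR's interaction test over 12341 genes). At 12 h the arsenic libraries (16.0 to 24.7 CPM) overlapped the non-treated ones (15.4 to 23.0 CPM), and at 24 h they did not (7.02 to 9.84 against 13.5 to 24.5 CPM). Groups of 3 libraries are too small for a test of single outlying libraries.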

How the results depend on the processing

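Directions were compared only for the 24 member results of single comparisons that passed in at least 1 run. None of these changed its direction under any alternative run. Directions of the other member results were not compared. With cadmium, 1 of 50 passed in place of 0 with RLE size factors, with a filter of 50 counts in 3 libraries, in a fit of only the libraries compared, and in DESeq2, each time CRY1 at 12 h. With mercury, 1 passed without a filter, where NR1D2 was lost at 6 h (adjusted p = 0.0766) and 12 h (adjusted p = 0.0687), and 0 with the requirement of an LFC beyond 1. That requirement also lost NR1D2 at 24 h with arsenic against non-treated cells (LFC 0.57) and between arsenic and cadmium (LFC 0.64). Against 1.5 h in non-treated cells, 1 passed with the stricter filter and 3 in DESeq2. The change of CRY1 between 12 and 24 h of arsenic was lost in the fit of only the libraries compared, leaving 0, and NR1D2 with mercury at 6 h was lost there too (adjusted p = 0.105). The cause of these changes was not tested. Without each library in turn, 1 to 3 passed with arsenic (1 without arsenic replicate 2 of 24 h), 0 to 1 with cadmium, 2 to 4 with mercury, 0 to 1 over time, 6 to 8 between metals, and 0 to 2 for the change from 12 to 24 h. The joint test over time was added after the data were seen.

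The replicate numbers were not taken as pairs: deviations of libraries with the same number correlated at a median of -0.00799 (-0.278 to 0.0837, 45 pairs). With a replicate block, 1 passed with cadmium (CRY1 at 12 h, adjusted p = 0.0475), and NR1D1 between arsenic and mercury at 24 h passed as well (adjusted p = 0.0489). In DESeq2, both NR1D1 (adjusted p = 0.0373) and NR1D2 (adjusted p = 0.0445) passed between arsenic and mercury at 24 h. The stricter filter left 4 of the 10 genes (PER1, PER3, CRY1, and NR1D2), so PER2 had no value there, nor in the 24 h comparisons of PER2 fitted to only their 6 libraries. In the fit of only the non-treated libraries, the change of PER2 over time was lost (adjusted p = 0.0769). Depth limits DBP, CRY2, NR1D1, and TEF most.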
